A study of Mus musculus with 6 samples.

Results

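Monocytes outside the cycling phases were examined in CD11b+ bone marrow cells of the femur and the mandible. They were the cells that the authors placed in cluster 5 of their integrated data, that a reference of sorted mouse immune cells named monocytes, and that were called G1 from their S and G2M phase genes. There were 3157 of them among 69776 kept cells in 6 single-cell libraries, which is 4.52% of all kept cells. The femur-derived libraries gave 454, 722 and 530 of these cells for replicates 1 to 3, and the mandibular-derived libraries gave 547, 442 and 462. Cluster 5 held 7354 cells in all, of which 3734 carried the monocyte name and 84.5% of those were in G1.

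All 6 libraries came from untreated C57Bl/6 mice aged 2 months. Femur replicate 1 was female, and femur replicates 2 and 3 and all 3 mandible replicates were male, so the female library is on the femur side only. Marrow was flushed from the long bones of the hind leg (the labels name femurs and tibiae, the study's methods femurs alone) or from mandibles after the molars were pulled, with the tooth sockets rinsed too, and CD11b+ cells were then taken with magnetic beads. CD11b is an integrin chain carried by neutrophils, monocytes and macrophages, so the selection does not separate these types. How many mice were pooled for a library is not stated, and p-values over libraries therefore describe the spread between these libraries, which may be partly technical. The question was how resident monocytes of the jaw differ from those of a long bone.

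Monocytes are made in the marrow from dividing precursors and leave it for the blood through the chemokine receptor CCR2. Classical monocytes carry high Ly6C and CCR2, while non-classical monocytes have lost both and depend on the transcription factor NR4A1. Monocytes can become macrophages, dendritic-like cells that show antigen on MHC class II molecules, or osteoclasts under CSF1 and RANKL.

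Counts were unique molecular identifiers (UMIs), each of which stands for a captured transcript molecule. UMIs of all G1 monocytes were summed within a library, which gave 3258053 to 7096774 UMIs, with a median of 7247.5 to 10117.5 UMIs per cell. Levels are UMIs per 1000000 summed UMIs (CPM), and site differences are log2 fold changes of mandible over femur from the edgeR quasi-likelihood test with their standard error (SE), called at a false discovery rate (FDR) under 0.05. The library labelled female held Xist, an RNA made from the silenced X of female cells, at 432 CPM, and the 5 labelled male were at 0 CPM. Of the 3157 barcodes, 43 (1.36%) also occurred in another library and 2 of these were G1 monocytes there as well. In femur replicate 3, 80.6% of G1 monocytes had 3 or more UMIs of neutrophil granule genes when each cell was thinned to 2000 UMIs. The other 5 libraries were at 20.7% to 43.2%, so femur replicate 3 stands apart in neutrophil transcripts. This library also had the most kept cells, 22797 against 7763 to 11611 in the others. Whether the cell number and the neutrophil transcripts are connected was not tested.

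The label was set beside 5 monocyte markers. Csf1r, the receptor for CSF1, lay between 370.5 and 530.1 CPM over the 6 libraries. Ccr2, the exit receptor, lay between 1157 and 1528 CPM. Ly6c2, which encodes Ly6C, lay between 1394 and 1997 CPM. F13a1, a transglutaminase chain of classical monocytes, ranged from 1016 to 1688 CPM, and Ms4a6c, a membrane protein of the MS4A family, from 976 to 1172 CPM. In the B lineage cells of cluster 6 the same 5 genes had medians of 4.43, 2.40, 161, 13.1 and 19.4 CPM in that order. After thinning to 2000 UMIs, a Csf1r UMI was seen in 52.8% to 64.7% of G1 monocytes (median depth of 8986 UMIs before thinning) and in 0% to 5.36% of B lineage cells (4285 UMIs). The markers thus go with the label. A second reference also called 3047 of the 3157 cells (96.5%) monocytes. The cluster and both reference labels were drawn from the same transcripts, so this is a description and no independent check.

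**Figure D1:**
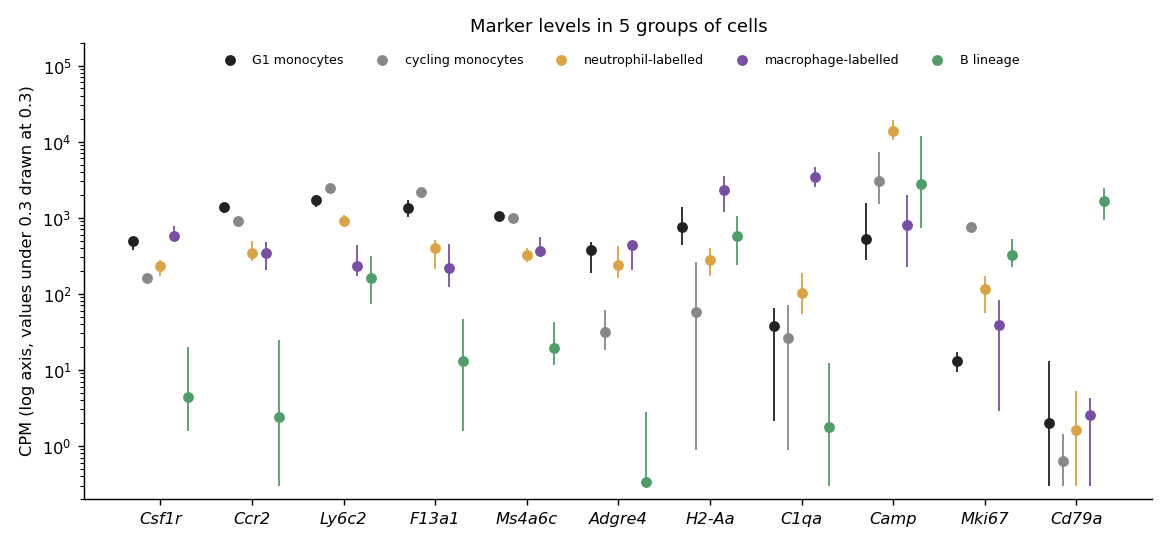
Levels of monocyte markers, a non-classical gene (Adgre4), MHC class II (H2-Aa), a macrophage gene (C1qa), a neutrophil granule gene (Camp), a proliferation gene (Mki67) and a B cell gene (Cd79a) in 5 groups of cells, in CPM on a log axis. Points are medians of 6 libraries and lines run from the lowest to the highest library. Csf1r in G1 monocytes lay between 370.5 and 530.1 CPM, while Camp was far lower than in neutrophil-labelled cells of the same cluster, where its median was 13909 CPM.

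Neutrophil transcripts were the most abundant of those that mark other cell types. Camp, a cathelicidin of neutrophil granules, had a median of 529 CPM in G1 monocytes and reached 1562 CPM in femur replicate 3. The list of 12 neutrophil granule and stefin genes summed to 4309 to 24100 CPM in the femur-derived and 7515 to 15652 CPM in the mandibular-derived libraries, most of it S100a8 and S100a9, which monocytes also make. The other 10 genes summed to 1121, 2034 and 5215 CPM in femur and 2411, 3645 and 1765 CPM in mandible, with femur replicate 3 highest and the sites overlapping. T and NK cell markers summed to at most 3.79 CPM, with Cd3e and Ncr1 at 0, and platelet markers to at most 16.4 CPM. B cell markers summed to 200 to 249 CPM in femur and 235 to 328 CPM in mandible, most of it Ighm, while Cd79a, a B cell receptor chain, was at 13.2 CPM in mandible replicate 2 and at most 3.67 CPM elsewhere. Erythroid markers, mainly globins, summed to 11.2 to 78.8 CPM in femur and 36.2 to 94.2 CPM in mandible. Mki67, a protein of dividing nuclei, was at 9.31 to 17.2 CPM against a median of 763 CPM in the cycling monocytes, which is what the phase rule selects.

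The most abundant nuclear gene product outside genes named as ribosomal proteins was Lyz2 (lysozyme), at 17536 to 22077 CPM or 1.92% of all UMIs. Tmsb4x, an actin-binding thymosin, followed with a mean of 14966 CPM. Then came Gm42418, a locus on chromosome 17, which ranged from 4862 to 17874 CPM between libraries, and Malat1, a nuclear non-coding RNA, with a mean of 10306 CPM. Actb, S100a9 and S100a8, Plac8, Ifitm3 and Zeb2 were also among the 15 highest genes. S100a8 and S100a9, the calprotectin pair shared by neutrophils and monocytes, ranged widely between libraries. S100a8 was at 1450, 3189 and 9094 CPM in femur and 3303, 5687 and 2858 CPM in mandible, with femur replicate 3 on top and the sites overlapping. None of the 15 differed between sites in the edgeR test, where the lowest FDR was that of Malat1, 0.706.

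The authors' finer clustering of the same cells split G1 monocytes into cluster 8 with 2586 cells and cluster 12 with 543 cells, leaving 28 cells elsewhere. Cluster 8 had classical features and cluster 12 non-classical ones, which is a description of how the cells were grouped and was not tested. Ly6c2 averaged 1853 CPM in cluster 8 and 108 CPM in cluster 12, and Ccr2 averaged 1486 and 398 CPM. In the opposite direction, Adgre4, an adhesion receptor of non-classical monocytes, averaged 226 and 1414 CPM, Ace, the angiotensin-converting enzyme, 86.8 and 515 CPM, and Nr4a1 194 and 694 CPM. Cd300e, an activating receptor of the CD300 family, averaged 5.37 and 194 CPM. Csf1r was present in both, at 437 and 821 CPM. Cluster 12 also held more neutrophil transcripts, with S100a8 at a mean of 11257 CPM against 3463 CPM in cluster 8, Camp at 2541 against 527 CPM and Ngp, a neutrophil granule protein, at 2449 against 506 CPM. Its cells were shallower, with library medians of 3394.5 to 6662 UMIs per cell against 7472 to 10848.5 UMIs. Cluster 12 made up 18.7%, 20.1% and 14.3% of the G1 monocytes of the femur-derived libraries and 19.9%, 11.8% and 16.5% of the mandibular-derived ones, so the sites overlapped.

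The sites did not differ in how many G1 monocytes they held beyond the spread between libraries. G1 monocytes were 4.43%, 6.22% and 2.32% of kept cells in femur and 6.36%, 5.05% and 5.95% in mandible. The means were 4.32% ± 1.95 and 5.79% ± 0.671 (SD, n = 3 each), with an exact 2-sided permutation p of 0.30, where 3 against 3 libraries cannot go below 0.10. The share of monocyte-labelled cells of cluster 5 that were in G1 was 93.0%, 93.5% and 86.3% in femur. It was 89.7%, 66.5% and 79.0% in mandible, where replicates 2 and 3 lay below every femur library and replicate 1 did not (exact permutation p = 0.20, n = 3 each). Monocyte-labelled cells made up 45.9%, 54.1% and 42.6% of cluster 5 in femur and 64.1%, 51.2% and 50% in mandible (exact permutation p = 0.30, n = 3 each). The 95% Clopper-Pearson intervals of single libraries were narrow, for instance 2.13% to 2.53% for the lowest share of kept cells, and cover counting error only.

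MHC class II genes were the list with the most calls between sites. MHC class II molecules are pairs of an alpha and a beta chain, made with the help of the invariant chain and loaded with peptide by H2-DM, and their genes are switched on by the coactivator CIITA, which binds no DNA itself but is held at X and Y box sequences by RFX, CREB and NF-Y factors. The 3 chain genes H2-Aa, H2-Ab1 and H2-Eb1 and Ciita were lower in mandibular-derived G1 monocytes, by 2.04-fold to 2.67-fold. In all, 18 of 10659 genes tested were called (0.169%), 2 higher in mandible (0.0188%) and 16 lower (0.15%), and 4 of the 16 came from the list of 8 MHC class II genes. At an unadjusted p under 0.05, 780 genes passed (7.32%), 2.71% of the tested genes being higher and 4.61% lower, and DESeq2 called 68 genes (0.638%).

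The 250 bases before the transcription start of H2-Aa and H2-Eb1 are shown because these genes moved together. They are from RefSeq on GRCm38.p6, and capitals mark 2 motifs that were searched on both strands and do not overlap in these promoters. One is the Y box core, ATTGG, which reads as the letters CCAAT on the opposite strand. The other is the start of the X box, written as CTNGNAACT. The X box letters were written down after reading these promoters and that of H2-DMb1, so their presence in these is no finding. The H2-Aa sequence is chr17:34287824-34288073 on the minus strand, and the H2-Eb1 sequence is chr17:34305617-34305866 on the plus strand.
H2-Aa: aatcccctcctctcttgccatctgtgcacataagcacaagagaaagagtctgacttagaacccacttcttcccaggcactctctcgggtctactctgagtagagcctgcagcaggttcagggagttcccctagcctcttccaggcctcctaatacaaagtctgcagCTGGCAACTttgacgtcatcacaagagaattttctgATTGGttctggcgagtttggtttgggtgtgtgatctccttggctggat
H2-Eb1: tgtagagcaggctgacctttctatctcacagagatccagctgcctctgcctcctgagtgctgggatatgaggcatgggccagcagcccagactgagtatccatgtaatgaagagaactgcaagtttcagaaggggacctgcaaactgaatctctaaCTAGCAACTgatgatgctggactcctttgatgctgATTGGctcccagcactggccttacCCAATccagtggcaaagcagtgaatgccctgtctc
In H2-Aa the X box letters began 84 bases before the start and the Y box 48 bases before it, and in H2-Eb1 the distances were 94 and 59 bases. H2-DMb1, whose level differed less, held both motifs as well, at 97 and 61 bases before its start. Over 32851 promoters of the same length, 33.8% held ATTGG on either strand, 3.47% held CTNGNAACT and 1.22% held both. The letters alone do not show that a factor was bound.

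H2-Aa (ENSMUSG00000036594, chr17:34282744-34287823 on mm10), the alpha chain of the I-A molecule, was at 1387, 913 and 1260 CPM in the femur-derived libraries and at 597, 439 and 603 CPM in the mandibular-derived ones. The highest mandible library was below the lowest femur library. The log2 fold change was -1.13 ± 0.17 (SE), with an edgeR FDR of 0.0315.

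H2-Ab1 (ENSMUSG00000073421, chr17:34257689-34269419), the beta chain that pairs with H2-Aa, was at 1306, 785 and 1254 CPM in femur and 486, 398 and 491 CPM in mandible, again without overlap. Its log2 fold change was -1.29 ± 0.19 (edgeR FDR 0.0266). H2-Eb1 (ENSMUSG00000060586, chr17:34305867-34316674), the beta chain of the I-E molecule, was at 1210, 740 and 1027 CPM in femur and 453, 268 and 399 CPM in mandible. This is RNA, and whether these mice form an I-E molecule was not examined here. The sites did not overlap and the log2 fold change was -1.42 ± 0.21 (edgeR FDR 0.0266). An annotated antisense gene lies over H2-Eb1, and whether counting used the strand is not stated.

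Ciita (ENSMUSG00000022504, chr16:10480059-10528418), the coactivator, was far less abundant, at 57.7, 47.3 and 66.3 CPM in femur and 30.5, 26.7 and 26.5 CPM in mandible. It fell by 1.03 on the log2 scale (SE 0.16, edgeR FDR 0.0306), and the sites did not overlap. Cd74, the invariant chain, was at 3271, 2202 and 3372 CPM in femur and 1655, 1320 and 1810 CPM in mandible. The sites did not overlap for Cd74 either, but its log2 fold change of -0.90 ± 0.18 did not pass (edgeR FDR 0.114). Cd74 passed in 5 of 20 settings, among them DESeq2 (FDR 4.49e-05) and edgeR in cells of finer cluster 8 only (0.0485). H2-DMb1 and H2-DMa, the 2 chains of the peptide loader, had log2 fold changes of -0.38 and -0.16 (edgeR FDR 0.473 and 0.839). Cd209a, a lectin of monocyte-derived dendritic cells, had a log2 fold change of -0.24 (edgeR FDR 0.926). The median log2 fold change of the 8 genes was -0.96, beside 0.0036 over all genes tested, and 5 of the 8 had sites that did not overlap, beside 12.3% of all genes tested.

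**Figure D2:**
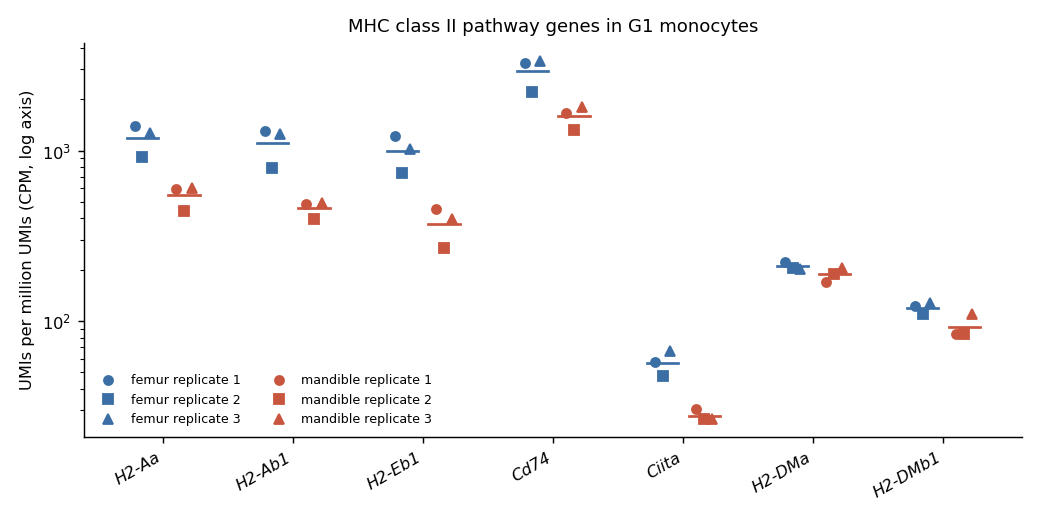
MHC class II pathway genes in G1 monocytes of each library, in CPM on a log axis. Circles, squares and triangles are replicates 1, 2 and 3, and bars are the mean of 3 libraries. For H2-Aa the femur-derived libraries lie at 913 to 1387 CPM and the mandibular-derived ones at 439 to 603 CPM, while H2-DMa overlaps between sites.

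The transcripts sat in a minority of cells. A G1 monocyte was counted as MHC class II-bearing with 3 or more UMIs of H2-Aa, H2-Ab1 and H2-Eb1 together after thinning to 2000 UMIs, which left out 38 femur and 17 mandible cells below that depth. The share was 18.8%, 14.9% and 19.4% in femur and 9.91%, 9.91% and 10.1% in mandible. The means were 17.7% ± 2.48 and 9.98% ± 0.117 (SD, n = 3 each), the sites did not overlap, and the exact 2-sided permutation p was 0.10, the smallest this design allows, or 0.20 after adjustment over the 4 cell shares tested. Between 0.550% and 3.72% of cells had exactly 2 or 3 UMIs, so few lay near the limit. H2-Aa averaged 5626 CPM in the cells past the limit and 16.7 CPM in those below it, a contrast the limit itself makes. Bearing cells also held fewer class II UMIs in mandible, with a mean of 28.3, 19.7 and 27.1 thinned UMIs per bearing cell against 39.4, 30.8 and 35.1 in femur (exact permutation p = 0.10, n = 3 each). In summed counts, fewer bearing cells and less RNA per cell cannot be told apart, and both quantities were lower here. Between 90.7% and 97.8% of the bearing cells of a library were in finer cluster 8, the one with classical features. That cluster held 78.4% to 88.0% of all G1 monocytes of a library, and in mandible replicate 2 the values were 90.7% and 88.0%. Unthinned, the share with 3 or more UMIs ran from 12.2% to 24.7% over the 6 libraries.

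Other cells of the libraries held these transcripts both less and more often. In neutrophil-labelled cells of cluster 5, at a median of 15445 UMIs per cell, the share past the limit was 6.08%, 9.53% and 14.1% in femur and 5.48%, 7.73% and 6.23% in mandible, below that of G1 monocytes in each of the 6 libraries. Over all kept cells other than G1 monocytes, H2-Aa was at 72.5, 69.8 and 39.9 CPM in femur and 56.0, 51.5 and 73.5 CPM in mandible, with overlap between sites. Cycling monocytes past the limit were 0% to 3.57%, where the 0 of mandible replicate 1 rests on 62 cells. The share was higher in the cells of other labels in each library, except in B lineage cells of femur replicate 3. It was 12.5% to 51.3% in B lineage cells and 14.3% to 51.7% in the remaining cells of cluster 5, both with overlap between sites. In macrophage-labelled cells it was 37.4%, 42.6% and 65.2% in femur and 26.5%, 26.5% and 33.3% in mandible, without overlap and in the same direction as in G1 monocytes.

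**Figure D3:**
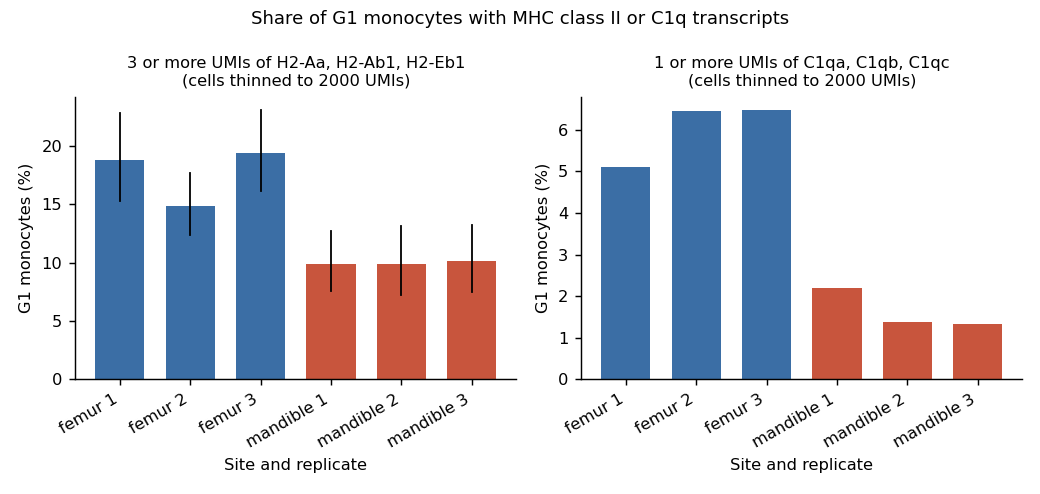
Share of G1 monocytes, in percent, with 3 or more UMIs of 3 MHC class II genes (left) and with 1 or more UMIs of 3 C1q genes (right), both after thinning each cell to 2000 UMIs. Bars are single libraries, blue for femur and red for mandible, and the black lines on the left are 95% Clopper-Pearson intervals. The femur-derived libraries reach 14.9% to 19.4% on the left and the mandibular-derived ones 9.91% to 10.1%.

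Some macrophage genes were also among the calls. C1qb and C1qc, 2 of the 3 chains of complement C1q that tissue macrophages make, were lower in mandible. C1qb was at 80.4, 63.0 and 112 CPM in femur and 27.5, 8.29 and 13.2 CPM in mandible, a log2 fold change of -2.33 ± 0.34 (edgeR FDR 0.0266). C1qc was at 63.6, 45.2 and 47.6 CPM in femur and 15.97, 4.91 and 8.33 CPM in mandible, a log2 fold change of -2.35 ± 0.29 (edgeR FDR 0.0252). Neither gene overlapped between sites. C1qa, the remaining chain, had a log2 fold change of -2.25 without passing (edgeR FDR 0.126), though it passed in 6 of the 19 settings in which it was tested. Of the 10 macrophage markers, 9 were tested, all 9 had negative log2 fold changes with a median of -1.92, 2 were called lower (0.15% of all genes tested) and 5 were lower without overlap (6.02% of all). Vcam1, an adhesion molecule of marrow macrophages, Mrc1, the mannose receptor, and Slc40a1, the iron exporter, had log2 fold changes of -2.25, -1.14 and -1.92 and did not pass. The 10 markers summed to 447 to 588 CPM in femur and 196 to 351 CPM in mandible, and none was at 0 in all libraries.

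Cells with a C1q UMI were few, 5.12%, 6.45% and 6.48% of thinned G1 monocytes in femur and 2.20%, 1.38% and 1.32% in mandible. In B lineage cells, which should lack C1q, the share was 0% to 2.24% (median 4285 UMIs before thinning), and in neutrophil-labelled cells of cluster 5 it was 10.1% to 26.0% (15445 UMIs), above that of G1 monocytes in each library. The mandible shares lay within the pooled range of the B lineage cells and are not read as expression. Within libraries, the B lineage share was 1.01%, 2.24% and 1.20% in mandible replicates 1 to 3. The femur shares lay above the pooled range, but few B lineage cells stood beside them. In femur replicates 1 to 3 these held a C1q UMI in 0 of 39, 3 of 153 and 0 of 56 cells. Whether the femur shares exceeded background was not tested. Unthinned, the shares of G1 monocytes with a C1q UMI were 10.1%, 11.6% and 9.62% in femur and 3.47%, 3.39% and 4.33% in mandible. Such cells made up 23.5%, 36.8% and 34.3% of the MHC class II-bearing cells in femur and 18.5%, 11.6% and 13.04% in mandible. Femur-derived G1 monocytes held C1qa at 1.79% and Vcam1 at 0.627% of their level in macrophage-labelled cells of cluster 5, and H2-Aa at 41.3% and Cd74 at 49.2%. Macrophage-labelled cells were 1.63%, 0.801% and 0.224% of kept cells in femur and 0.837%, 0.526% and 0.683% in mandible, with overlap.

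The class II difference kept its direction but not its call when cells with a C1q UMI were left out, an alternative chosen after the data were seen that removes any cell with a single C1q UMI or more. H2-Aa was then at a log2 fold change of -0.70, H2-Ab1 at -0.84, H2-Eb1 at -0.91 and Ciita at -0.85 (edgeR FDR 0.296 to 0.625). Without femur replicate 1, mandible replicate 2 or mandible replicate 3, the log2 fold changes of these 4 genes were -1.44 to -0.97 and none passed (edgeR FDR 0.138 to 0.192), and of the 18 genes called only Amelx passed again. Without mandible replicate 1, H2-Aa, H2-Ab1 and Ciita did not pass (edgeR FDR 0.0633, 0.0536 and 0.0536) and H2-Eb1 did (0.023). Without femur replicate 3, H2-Aa and Ciita did not pass (both 0.0552), and all 4 passed without femur replicate 2. In monocytes of any phase Ciita alone of the 4 passed, and without cells with neutrophil granule genes H2-Ab1 alone did (edgeR FDR 0.0451 and 0.0429). The latter setting removed most G1 monocytes of femur replicate 3. Over the 20 settings H2-Aa passed in 11, Ciita in 12, and H2-Ab1 and H2-Eb1 in 13 each. Without femur replicate 1 the comparison is between males. Within the libraries that share the number 6 in their names (mandible replicate 1 and femur replicate 2) the log2 ratio of H2-Aa was -0.61, and within number 7 (mandible replicate 2 and femur replicate 3) it was -1.52.

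The largest fall by fold among genes called with a mean of at least 10 CPM, after C1qc and C1qb, was that of Ms4a7, an MS4A family protein known from macrophages. It was at 62.9, 37.8 and 56.8 CPM in femur and 18.2, 11.7 and 9.55 CPM in mandible, a log2 fold change of -1.97 ± 0.25 (edgeR FDR 0.0252). Itgax, the CD11c integrin chain of dendritic cells and non-classical monocytes, was at 32.5, 20.01 and 25.01 CPM in femur and 8.98, 7.06 and 5.39 CPM in mandible, a log2 fold change of -1.83 ± 0.24 (edgeR FDR 0.0252). Neither overlapped between sites. Gm13684, a non-coding gene that overlaps another locus, had a log2 fold change of -1.38 (edgeR FDR 0.0498). Without cells holding a C1q UMI, Itgax was at -1.53 and Ms4a7 at -1.36 and neither passed.

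The other 7 genes called lower are named after their values were seen. Clec2d, a lectin-like ligand of NK receptors, was at 187, 179 and 199 CPM in femur and 115, 91.5 and 100.4 CPM in mandible, with a log2 fold change of -0.88 ± 0.12 (edgeR FDR 0.0266). Clec4b1, another lectin, Calhm6, a channel family protein, Adap2, an Arf GTPase regulator, and Tmem176a, a membrane protein of antigen-presenting cells, had log2 fold changes between -1.02 and -0.88. Asb2, a ubiquitin ligase subunit, was at 11.6, 8.31 and 4.83 CPM in femur and at most 1.60 CPM in mandible. Fcrl5, an Fc receptor-like protein known from B cells, rested on 69 UMIs in femur and 5 in mandible, a femur to mandible ratio of 10.6 with a 95% counting interval of 4.34 to 33.7. Clec2d, Clec4b1 and Ms4a7 have close relatives, and reads shared between copies could have been lost or misplaced.

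Both genes called higher in mandible are made by cells of the jaw or bone. Amelx, the enamel matrix protein amelogenin of ameloblasts, was at 0.227, 0.282 and 0.219 CPM in femur and 19.8, 14.7 and 14.0 CPM in mandible (edgeR FDR 6.04e-05). It had 204 UMIs in mandible and 4 in femur, a ratio of 66.3 with a 95% counting interval of 25.5 to 246. Col1a1, the alpha 1 chain of type I collagen, was at 0.227, 0.141 and 0.439 CPM in femur and 7.78, 2.76 and 4.41 CPM in mandible (edgeR FDR 0.0266), from 66 and 4 UMIs with a ratio of 21.5 (interval 7.99 to 81.1). Amelx passed in all 20 settings, and Col1a1 in 10 of the 18 in which it was tested. Klk4, another marker of ameloblasts, was at 0 in every library. The 7 ameloblast and odontoblast markers, Amelx among them, summed to 15.9 to 23.9 CPM in mandible and at most 0.564 CPM in femur. Most of the mandible sum was Amelx itself. The 10 bone and stromal markers, Col1a1 among them, summed to 26.1 to 37.5 CPM in femur and 31.6 to 50.1 CPM in mandible. In all other kept cells Amelx was at 34.5, 14.4 and 242 CPM in mandible and at most 0.0695 CPM in femur, so it was not particular to monocytes. Its level in G1 monocytes was lower than in those cells in mandible replicates 1 and 3 and about equal in replicate 2. The study detected Amelx by qRT-PCR in isolated mandibular monocytes and osteoclast precursors, without significant expression in those of the femur. It also saw AMELX protein in cultured mandibular osteoclasts and not in femur ones, but found no such osteoclasts in tissue sections. Which cells made the Amelx transcripts counted here was not tested.

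No other gene was called higher, and the 6 rises with the lowest p and no overlap did not pass the test. Slc7a11, the cystine and glutamate exchanger, was at 15.9, 19.0 and 19.3 CPM in femur and 33.7, 48.5 and 31.8 CPM in mandible, a log2 fold change of 1.05 ± 0.19 (edgeR FDR 0.0874). Ildr1, an immunoglobulin-domain receptor, had a log2 fold change of 1.07 (edgeR FDR 0.0874), Rgcc, a cell cycle regulator, of 1.09 (0.126), Gm14455, an antisense gene, of 1.07 (0.142) and Prdx6, a peroxiredoxin, of 0.48 (0.19). Rgcc passed in 6 of 20 settings, Slc7a11 and Ildr1 in 5 each, Gm14455 in 2 and Prdx6 in 1. The remaining one was Egr1.

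Immediate early genes, which cells switch on within minutes of a stimulus, were mostly higher in mandible without passing the test. Egr1, a zinc finger factor of this group, was at 50.6, 121 and 36.6 CPM in femur and 308, 238 and 154 CPM in mandible. All 3 mandible libraries were above all 3 femur libraries, and the log2 fold change was 1.73 ± 0.38 (edgeR FDR 0.147). Egr1 passed in 4 of 20 settings, with an edgeR FDR of 0.017 without femur replicate 2, the femur library with the highest value, and of 0.0322 with the replicate block by title number. In all other kept cells Egr1 was at 336, 438 and 88.9 CPM in femur and 759, 268 and 266 CPM in mandible, with overlap. Ier2 was at 259, 286 and 203 CPM in femur and 397, 368 and 332 CPM in mandible, without overlap (log2 fold change 0.55 ± 0.15, edgeR FDR 0.26). Of the 19 immediate early genes tested, 17 had positive log2 fold changes and their median was 0.28. None was called, 5 had an unadjusted edgeR p under 0.05, and 2 were higher without overlap (6.3% of all genes tested). Of 7 monocyte genes that the study chose on these same libraries, none was called and 5 had positive log2 fold changes. Junb and Klf4, transcription factors among them, had log2 fold changes of 0.56 and 0.27. Nr4a1 had a log2 fold change of 0.085. Of the 7, S100a8 and S100a9 had negative values. The study compared all cells of cluster 5 between sites, by a Wilcoxon test on single cells. Its qRT-PCR on separately isolated monocytes found Klf4, Nr4a1 and Egr1 significantly raised in mandible and both S100a genes lower. Junb and Ccl3 tended upward there. Its chromatin assay found more open regions in mandible at Klf4, Junb, Nr4a1 and Egr1. Whether cells or test explain the absence of calls here was not tested.

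**Figure D4:**
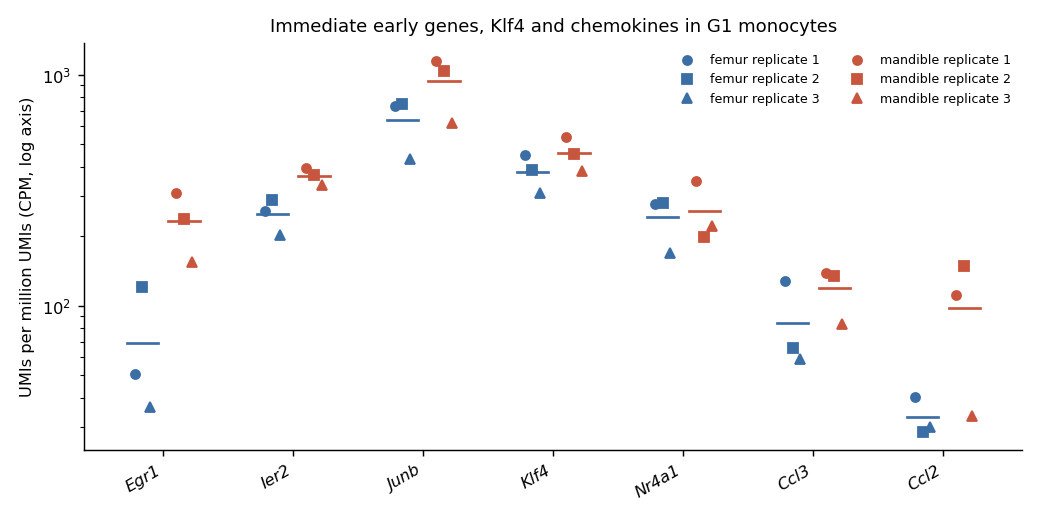
Immediate early genes, Klf4, Nr4a1 and the chemokines Ccl3 and Ccl2 in G1 monocytes of each library, in CPM on a log axis. Circles, squares and triangles are replicates 1, 2 and 3, and bars are the mean of 3 libraries. Egr1 and Ier2 do not overlap between sites, with Egr1 at 36.6 to 121 CPM in femur and 154 to 308 CPM in mandible, and the other 5 genes overlap.

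Cytokines and chemokines had log2 fold changes of both signs, and none of 13 tested was called, with a median of -0.058. Ccl2, the ligand of CCR2, was at 40.4, 28.5 and 29.8 CPM in femur and 111, 148 and 33.3 CPM in mandible, where replicate 3 lay in the femur range (log2 fold change 1.58 ± 0.41, edgeR FDR 0.237). Ccl2 passed in 4 of 20 settings, among them the one without mandible replicate 3 (edgeR FDR 0.00446). Ccl3 had a log2 fold change of 0.51. Cxcl16, a membrane-bound chemokine, was at 17.9, 8.31 and 20.8 CPM in femur and 5.59, 3.99 and 3.43 CPM in mandible, a log2 fold change of -1.81 ± 0.36 (edgeR FDR 0.114). Il1b, the inflammatory cytokine, was at 84.9, 62.3 and 88.4 CPM in femur and 59.7, 47.3 and 32.1 CPM in mandible, without overlap (log2 fold change -0.75, edgeR FDR 0.325). Il6 and Il10 were under 1 CPM in each library and were not tested.

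Interferon response genes had mostly negative log2 fold changes, and none was called. Of 19 tested, 18 had negative log2 fold changes, with a median of -0.34, and 9 had sites that did not overlap, all lower in mandible (6.02% of all genes tested). Ifit3, an interferon-induced RNA-binding family member, was at 85.4, 77.8 and 65.6 CPM in femur and 46.7, 32.5 and 52.9 CPM in mandible, a log2 fold change of -0.79 ± 0.16 (edgeR FDR 0.12). Ifit3 passed in 6 of 20 settings, among them DESeq2 (FDR 0.00733) and edgeR without high-UMI cells (0.0178), without cells with neutrophil granule genes (0.0429) and without cells with a C1q UMI (0.0489). Ifit1, which binds foreign RNA ends, had a log2 fold change of -0.67 and Isg15, a ubiquitin-like modifier, of -0.78, where mandible replicate 3 overlapped femur. Cxcl10, an interferon-induced chemokine, had a log2 fold change of -0.78. Ifitm3, the most abundant of the list, had a log2 fold change of -0.0042.

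Classical and non-classical genes had medians of opposite sign, and none passed. Of 12 classical genes, 9 had positive log2 fold changes with a median of 0.22, 5 were higher without overlap, beside 6.3% of all genes tested, and Ms4a4c, an MS4A family protein, was lower without overlap (log2 fold change -0.16). F13a1 was at 1274, 1170 and 1016 CPM in femur and 1367, 1688 and 1610 CPM in mandible (log2 fold change 0.43 ± 0.14, edgeR FDR 0.455). Fn1, fibronectin, and Ly6c2 had log2 fold changes of 0.49 and 0.28. Of 14 non-classical genes, 13 had negative log2 fold changes with a median of -0.33, and 2 were lower without overlap, beside 6.02% of all genes tested. Adgre4 was at 438, 484 and 348 CPM in femur and 407, 187 and 269 CPM in mandible, with mandible replicate 1 inside the femur range (log2 fold change -0.56, edgeR FDR 0.616). Cd300e and Ace had log2 fold changes of -0.99 and -0.44.

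The share of G1 monocytes with 3 or more thinned UMIs of 8 non-classical genes was 35.8%, 41.0% and 38.3% in femur and 35.4%, 20.5% and 29.7% in mandible. Mandible replicate 1 lay just under the lowest femur library and the other 2 well below (exact permutation p = 0.10, n = 3 each, 0.20 after adjustment over 4 shares). Between 18.0% and 21.9% of cells had exactly 2 or 3 UMIs, so many lay near the limit. With 2 or more UMIs the sites overlapped, at 48.1% in mandible replicate 1 and 47.4% in femur replicate 1. Unthinned they overlapped too, at 79.9% in mandible replicate 1 and 78.1% in femur replicate 3. In B lineage cells 3.57% to 10.3% were past the same limit at a median of 4285 UMIs per cell, and in cycling monocytes 3.59% to 14.3% were. In neutrophil-labelled cells of cluster 5 (median 15445 UMIs) the share was 21.9% to 38.1%, above that of G1 monocytes of the same library in 3 of 6 libraries. The share with 3 or more UMIs of 5 precursor granule genes, such as Elane and Prtn3, was 0.461% in mandible replicate 2 and 0% in the other 5, where 0 of 713 cells in femur replicate 2 allows up to 0.421% and 0 of 430 in femur replicate 1 up to 0.698%. In cycling monocytes it was 1.61% to 15.2%. The share with neutrophil granule genes was 20.7%, 43.2% and 80.6% in femur and 21.8%, 20.7% and 35.4% in mandible (exact permutation p = 0.40, n = 3 each), and without femur replicate 3 the mandible minus femur difference of the means was -5.96 percentage points in place of -22.2.

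Genes of the osteoclast path were present at the precursor stage. Csf1r and Tnfrsf11a, the receptor for RANKL, are needed for osteoclasts to form. Tnfrsf11a was at 30.4, 24.1 and 37.7 CPM in femur and 18.8, 21.8 and 29.6 CPM in mandible, with overlap (log2 fold change -0.40, edgeR FDR 0.735). Csf1r had a log2 fold change of -0.19. Acp5, the tartrate-resistant phosphatase, was at 21.3, 25.6 and 50.7 CPM in femur and 13.4, 16.6 and 10.3 CPM in mandible, without overlap, a log2 fold change of -1.29 ± 0.32 (edgeR FDR 0.215). Some genes of mature osteoclasts were at or near 0, with Oscar and Calcr at 0 in every library and Dcstamp, the fusion protein, at no more than 0.2 CPM. Others were not, since Acp5, Mmp9 and Itgb3, which osteoclasts also make, were abundant enough to be tested in all 20 settings. Of 11 osteoclast genes tested none was called and the median log2 fold change was -0.12.

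Receptors for antibody and microbial products included 14 genes tested, none of them called, with a median log2 fold change of -0.16. Fcgr2b, the inhibitory Fc receptor, was at 211, 185 and 224 CPM in femur and 171, 140 and 123 CPM in mandible, without overlap (log2 fold change -0.51, edgeR FDR 0.338). Cd14, the lipopolysaccharide co-receptor, went the other way, from 17.6 to 30.3 CPM in femur to 30.4 to 55.9 CPM in mandible (log2 fold change 0.74, edgeR FDR 0.473). Of 18 monocyte transcription factors none was called, with a median of 0.16. Of 14 trafficking receptors and integrins Itgax alone was called, and their median was -0.14. Of 6 dendritic cell markers tested, 1 was called lower (Itgax again, beside 0.15% of all genes tested) and 3 were lower without overlap (6.02% of all). Of 8 proliferation genes and 5 precursor granule and progenitor genes tested, none was called, with medians of 0.26 and 0.47, and the same held for 12 neutrophil granule and stefin genes, with a median of -0.17.

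**Figure D5:**
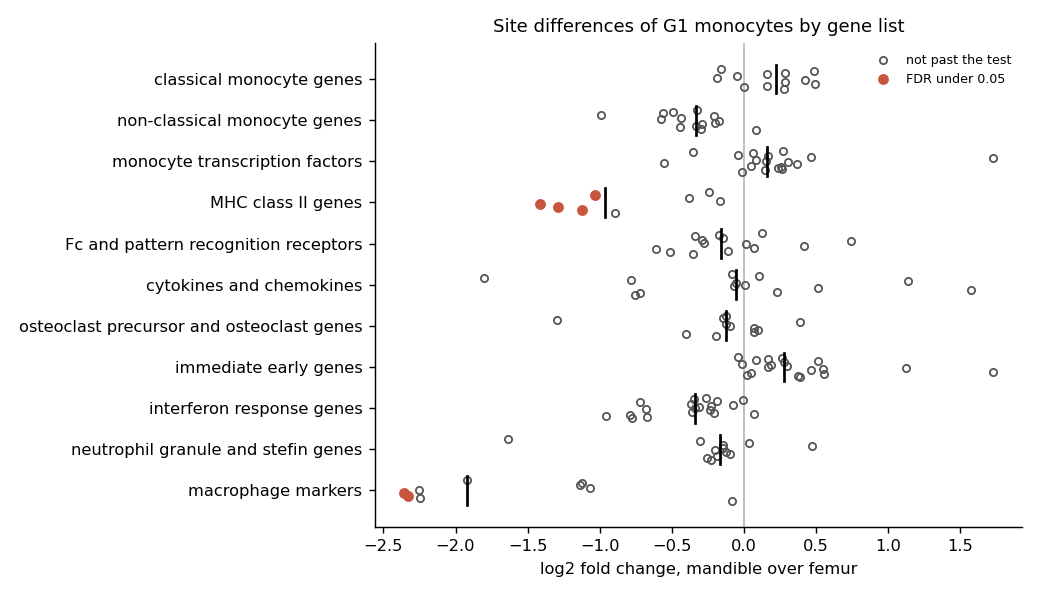
Site differences of the genes of 11 lists in G1 monocytes, as log2 fold change of mandible over femur. Each circle is a gene that was tested, filled red circles passed an FDR of 0.05 in edgeR, and the black bar is the list's median, which was -0.96 for MHC class II genes and -1.92 for macrophage markers.

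Whether the site differences were particular to G1 was asked in 577 cycling monocytes, 462 of them in G2M and 115 in S. The difference between the 2 site differences was tested for 10852 genes with limma on values paired within a library, and 0 were called (0%), with 652 at an unadjusted p under 0.05 (6.01%). The lowest p values belonged to Rsph9, Gm47207 and Gm12089 (limma FDR 0.487, 0.487 and 0.585). The site difference of H2-Aa was -1.12 in G1 and -1.55 in cycling monocytes on the log2 CPM scale, and the difference of the 2, 0.43, had an SE of 2.37. There were 34 to 223 cycling cells per library. In simulated counts the test recovered 8% of 4-fold differences, but G1 and cycling counts were drawn independently there. The pairing within a library was therefore not imitated. The absence of calls does not show that the site differences were the same in G1 and cycling monocytes.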

How the data were processed

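Raw counts deposited by the authors, as whole UMIs per gene and barcode, came from 10x 3' libraries processed with Cell Ranger on mm10 (version 7.0.1 in the submitters' notes, 7.1.0 in the matrix headers), without pooling. The metadata deposited by the authors gave other values (cluster numbers, phase calls and reference labels), UMI counts, and the mitochondrial share in percent. Per the study's methods, cells with 600 to 6000 genes and up to 20% mitochondrial UMIs were kept, normalised with SCTransform, integrated and clustered at resolution 0.1 (0.5 for the finer clusters). Integration decided which cells were compared and did not alter the counts used here. How doublets were treated is not given in the sources used here, and no caller was run. Deposited fold changes and p-values between clusters were not used.

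Counts of G1 monocytes were summed per library and compared with edgeR 4.0.16 (TMM, default filter on low counts, no covariate). Cells were not replicates. Shares were compared by exact 2-sided permutation over 20 assignments of the libraries. Shares of cells past a UMI limit were taken after each cell was thinned to 2000 UMIs. Those by cluster, label or phase were counted over all cells, without thinning. For the cycling comparison, log2 CPM values (prior count 2) were tested with limma 3.58.1. In simulated counts for 10516 genes the edgeR step recovered 67% of 2-fold and 96% of 4-fold changes, with 11 false calls beside 200 changed genes. The members and the 23 gene lists were chosen with earlier results of these data known. Named genes were those on the lists, the 6 largest rises and falls at an FDR under 0.05 and a mean of at least 10 CPM (topped up, where fewer passed, by the lowest p without overlap between sites), the 15 most abundant genes and the 3 lowest p of the cycling comparison. The list members Clec7a and Mx1 were not analysed here. Positions are 1-based on mm10 (GENCODE vM21). Alternatives were RLE factors, DESeq2 1.42.0, no filter, each library left out, replicate blocks and narrower or wider cell selections.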

Additional observations from a re-analysis of the deposited data

How the results depend on the processing

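The number of genes called for site, 18, depended on the processing. It was 68 with DESeq2 (8 higher, 60 lower), 300 without the filter on low counts (67 and 233), 40 without cells above the 95th percentile of UMIs, 33 in cells of finer cluster 8 only, 11 in monocytes of any phase, 4 without cells with neutrophil granule genes and 2 without cells with a C1q UMI. The setting without neutrophil granule cells removed 80.6% of thinned G1 monocytes of femur replicate 3, against 20.7% to 43.2% in the other libraries. Leaving out 1 library at a time gave 1 to 19 calls. It gave 1 without femur replicate 1 or mandible replicate 2, and 3 without mandible replicate 3. The 18 genes kept their direction in every alternative where they were tested, and RLE factors, DESeq2 and the fit without a filter called all 18 again.

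With the replicate block by title number the count was 29, and the numbers did not pair the libraries, since the correlations of same-numbered deviations from the site means were 0.16, -0.21 and 0.03. With a replicate block by the number in the library names, which only 4 male libraries share, it was 450, against 2 in the same 4 libraries without the block. Of 60 named genes, the block by title number gained the calls of Egr1 and Cd74 (FDR 0.0322 and 0.0483) and lost those of Fcrl5 and Gm13684. The fit with the block by library number, which also drops 2 libraries, gained 35, Egr1, Cd74 and Ifit3 among them, and lost none. Ccl2 was gained too, but passed in the same 4 libraries without the block (FDR 0.0221). The deviations correlated at 0.27 and 0.32 there, but what the number marks is not stated and there are only 2 such pairs. The comparison with cycling monocytes gave 0 calls with a prior count of 0.5 and without each library in turn.

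Leaving out 1 library at a time changed the mandible minus femur difference, in percentage points, to 0.465 to 2.41 for G1 monocytes among kept cells, -18.2 to -6.64 for the G1 share, 3.11 to 10.9 for the monocyte share of cluster 5, -13.3 to -5.81 for non-classical, -9.16 to -6.88 for MHC class II, 0 to 0.230 for precursor granule and -35.9 to -5.96 for neutrophil granule genes.

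The log2 fold changes that changed sign belonged to genes with no call. That of Ccr2, 0.0036, became -0.0068 without the filter, -0.12 in monocytes of any phase, -0.0055 with both reference labels, -0.093 without cells with non-classical genes, -0.0043 without cells with neutrophil granule genes, -0.011 without cells with a C1q UMI and -0.043 in finer cluster 8. Leaving out 1 library at a time gave -0.086 to 0.081 for Ccr2, -0.55 to 0.050 for Cd209a, -0.22 to 0.23 for Nr4a1, -0.67 to 0.77 for S100a8 and -0.68 to 0.68 for S100a9. The highest values of S100a8 and S100a9 were those without femur replicate 3. Nr4a1 was at -0.17 in monocytes of any phase, and S100a8 and S100a9 were at 0.17 and 0.089 with the block by title number. Other listed genes without a call changed sign between settings too, such as Camp (-0.69 to 0.87) and Mki67 (-0.34 to 1.17). The cause was not tested.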
